A study of Rattus norvegicus with 16 samples.

Results

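Hepatic stellate cells, the retinoid-storing pericytes of the liver, and the matrix they make were followed through 10 genes in adult rat liver. The genes were Col1a1, Col1a2, Col3a1, Sparc, Timp1, Pdgfrb, Tgfb1, Acta2, Des and Lrat. Probes were chosen by name: a probe belonged to a gene where its accession in the scanner text files mapped to that symbol. This gave 12 probes of 30367 on the array, and 10 of 26913 names. Col1a1 and Lrat had 2 probes each, and the brighter in the liver channel stands for the gene. Of the 10 genes, 9 gave enough liver signal for a test, among 11089 features in all. Tgfb1 did not.

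Livers came from male Sprague-Dawley rats aged 78 to 86 days, whose dams had been dosed with corn oil, alone or carrying contaminants, through gestation and lactation. MM rats were born to dams that received methyl mercury, polychlorinated biphenyls and organochlorine pesticides together, at 1.0 mg/kg/day in all, and were fostered at birth to another dam on the same mixture. M rats had the same exposure and stayed with their own mothers. CC rats were born to corn oil dams and fostered to another corn oil dam, and C rats stayed with their corn oil mothers. The labels disagree for the M arrays, since 1 field names them as control while title and treatment name the mixture, and they were taken as exposed. Each group had 4 arrays, and each array held RNA pooled from 2 rats of 1 group. Liver cRNA carried Cy5 on every array and a universal reference RNA from 14 rat cell lines carried Cy3. Values are log2 of liver over reference unless a channel is named, so values above 0 mean that liver was the brighter channel. The study asked whether adoption of a litter at birth, and contaminants received before weaning, bear on gene expression of the adult liver.

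Quiescent stellate cells lie between the sinusoidal endothelium and the hepatocytes and store vitamin A as retinyl esters. In injury they lose these stores, divide under platelet-derived growth factor, become contractile and lay down fibrillar collagen under transforming growth factor beta. Portal fibroblasts, mesothelium and vascular smooth muscle share many of the same genes, so the 10 as a set do not mark stellate cells alone.

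Each array detected 35.0% to 41.9% of its probes well above background in liver RNA, and 61.6% to 66.1% in the reference RNA. Slide 1 held the C and CC arrays and slide 2 the M and MM arrays, so exposure and slide cannot be told apart, whereas MM and M, and CC and C, shared a slide. Each slide had 2 rows of arrays, and each group had 2 arrays in each row. All 12 hepatocyte markers that were looked at, albumin among them, were well above background on all 16 arrays in liver and were called higher in liver than in the reference.

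Set against the cell lines, 8 of the 9 tested genes were lower in liver and Lrat was higher. All 9 passed limma's test at a Benjamini-Hochberg adjusted p under 0.05, as did 92.4% of all features tested, 50.9% as higher in liver and 41.5% as lower. The count of calls is thus near that of any features, and the sizes given here are those of 1 background correction and normalization. The median of the 9 was -2.14, beside 0.11 over all features. With no dye swap, a dye effect of a probe cannot be told apart from a difference between liver and reference. In bulk tissue, fewer cells of a type and less RNA per cell cannot be told apart either.

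The fibrillar collagens make the fibres of scar tissue. Col1a2, the alpha 2 chain of type I collagen, had a mean log2 ratio of -4.19 ± 0.20 (SD, n = 16), which is 18.3-fold more signal in the reference. Col1a1, the alpha 1 chain of the same molecule, stood at -2.65 ± 0.24. Its dimmer probe gave -5.04 ± 0.21, so the 2 probes agree in direction and differ in size, at 6.29-fold and 32.9-fold. Col3a1, the chain of type III collagen, stood at -2.43 ± 0.33 and varied more among arrays than the type I chains. Sparc, a collagen-binding matrix protein, stood at -2.14 ± 0.17. Timp1, the inhibitor of matrix metalloproteinases that activated stellate cells release, lay lowest at -4.33 ± 0.15, or 20.2-fold more signal in the reference. Every array of all 4 groups was below 0 for these 5 genes.

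Among the signalling genes, Pdgfrb, the receptor for platelet-derived growth factor B, stood at -0.83 ± 0.22 (SD, n = 16). Tgfb1, the ligand that drives collagen synthesis, was not well above background in liver on any array and was so in the reference on all 16. With liver held at no less than the dimmest signal well above background, the reference was 2.14-fold higher, the same as the measured ratio. The liver side lay near background, so this size is uncertain. Acta2, the smooth muscle actin of contractile stellate and muscle cells, stood at -1.55 ± 0.16. Des, the intermediate filament desmin that marks rat stellate cells, stood at -0.11 ± 0.12 and was well above background in liver on 13 of 16 arrays, against all 16 for the other tested genes. The Des call was lost on the C and CC arrays alone, where the value was also -0.11 (limma adjusted p = 0.0976), and in slide row 2 alone, at -0.05 (limma adjusted p = 0.287).

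Lrat, the enzyme that esterifies retinol for storage, was the 1 tested gene with more signal in liver, at 2.92 ± 0.45 (SD, n = 16). It was well above background in liver on all 16 arrays and in the reference on none. With the reference held at no less than the dimmest signal well above background, liver was 7.44-fold higher in the main processing. The second Lrat probe was not well above background in either channel on any array and gave 0.17 ± 0.09. The Lrat value therefore rests on 1 probe, whose 2 spots differed more than those of any other member, with a median SD between spots of 0.56.

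The direction of all 9 genes was the same in every alternative run, but the sizes depended on processing. With a normexp offset of 16 in place of 50, the log2 ratio of Lrat was 4.24, that of Sparc -1.42 and that of Col1a2 -3.61. With median centring in place of loess, the 8 lower genes lay lower still, Pdgfrb at -1.996, Acta2 at -2.67, Des at -0.89, Col1a1 at -3.50, Col1a2 at -4.93, Col3a1 at -3.24, Sparc at -2.84 and Timp1 at -5.28. The scanner software's own ratio gave 7.89 for Lrat, -2.86 for Acta2, -0.74 for Des and -1.46 for Sparc. With the mean of both probes, Lrat stood at 1.55 and Col1a1 at -3.85.

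**Figure D1:**
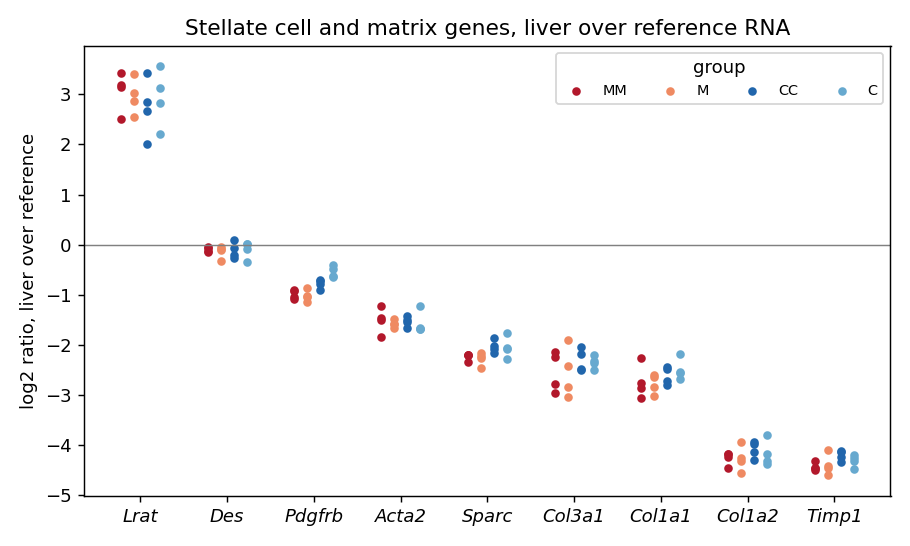
Log2 ratio of liver over reference (vertical axis) for the 9 tested genes, 1 point per array, coloured by group (MM, M, CC, C; 4 arrays each). Lrat lies between 2.01 and 3.56, Des near 0, and Timp1 and Col1a2 lie lowest.

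Promoters are shown for the members at both ends of this order, as RefSeq gives them on the GRCr8 assembly, from 250 bases before to 50 after the annotated start. Of the 10 genes, 7 were in that table. Capitals mark matches on either strand to 4 motifs: the TATA box, spelled TATAAA, then the binding letters CCAAT of nuclear factor Y, then the GC box, spelled GGGCGG, and finally the AP-1 site, spelled TGANTCA.
Col1a2 (chr4:33518307-33518606, plus strand): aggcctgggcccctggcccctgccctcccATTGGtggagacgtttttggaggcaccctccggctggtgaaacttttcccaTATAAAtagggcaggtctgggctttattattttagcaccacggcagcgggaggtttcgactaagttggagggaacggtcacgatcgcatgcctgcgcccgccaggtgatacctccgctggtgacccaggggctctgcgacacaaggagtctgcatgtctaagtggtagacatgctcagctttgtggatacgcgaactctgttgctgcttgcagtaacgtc
Timp1 (chrX:3771073-3771372, minus strand): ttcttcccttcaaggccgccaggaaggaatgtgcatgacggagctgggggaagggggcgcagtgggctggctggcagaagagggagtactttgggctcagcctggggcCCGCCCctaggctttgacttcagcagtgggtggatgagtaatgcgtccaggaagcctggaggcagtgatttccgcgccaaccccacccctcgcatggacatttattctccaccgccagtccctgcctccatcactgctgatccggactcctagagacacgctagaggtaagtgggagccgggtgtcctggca
Lrat (chr2:170571163-170571462, minus strand): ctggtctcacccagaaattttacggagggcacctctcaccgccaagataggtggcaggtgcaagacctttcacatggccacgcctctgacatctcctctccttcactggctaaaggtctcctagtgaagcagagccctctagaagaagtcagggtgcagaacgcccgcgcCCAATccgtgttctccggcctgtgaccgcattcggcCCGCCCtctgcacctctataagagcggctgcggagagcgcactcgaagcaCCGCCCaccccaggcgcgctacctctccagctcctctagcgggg
The Col1a2 window holds a TATA box at -170 and, on the other strand, a nuclear factor Y motif at -221. The Timp1 window holds 1 GC box on the other strand, at -142. The Lrat window holds the nuclear factor Y motif at -80 and GC boxes on the other strand at -44 and 7, and no AP-1 match was found in the 3 windows. No matched letters overlap. Of 33469 promoters in the table, 14.2% hold the TATA box, 37.5% the nuclear factor Y motif, 33.1% the GC box and 7.33% the AP-1 site. These matches describe the letters only.

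MM minus M, with both groups on slide 2, asked what fostering did in exposed litters. None of the 9 genes passed the test, and 0% of all 11089 features did, although 195 features had an unadjusted limma p under 0.05. The 9 differences were small: 8 were above 0, their median was 0.04 (0.0015 over all features), and the largest was 0.12 ± 0.30 (SE) for Lrat. The collagens lay close to 0, with Col1a1 at 0.04 ± 0.16, Col1a2 at 0.00 ± 0.14 and Col3a1 at 0.02 ± 0.22. The 95% intervals reached from -0.53 to 0.76, both ends from Lrat, so for that gene differences within this range cannot be told apart from 0. For Pdgfrb the interval was narrower, -0.15 to 0.22. In the liver channel none of the 9 passed, against 0% of all features, and the same held in the reference channel, again against 0%. Groups overlapped for all 9 in the log ratio, whereas 1.08% of all features did not overlap.

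CC minus C, with both groups on slide 1, put the same question to control litters. Again none of the 9 genes passed, against 0% of all features (107 at an unadjusted limma p under 0.05). The median of the 9 was 0.01, beside -0.01 over all features, and 5 were above 0. Pdgfrb was the 1 gene of the 9 whose groups did not overlap in the log ratio. Its log2 ratios were -0.90, -0.71, -0.72 and -0.79 on the CC arrays, against -0.63, -0.48, -0.65 and -0.41 on the C arrays. Every CC array lay below every C array. The difference was -0.24 ± 0.09 (SE; limma adjusted p = 1.00), so it did not pass. In the liver channel the CC arrays also lay below the C arrays, by -0.22 ± 0.08 (adjusted p = 1.00), and in the reference channel the difference was 0.00 ± 0.03. Such separation was seen in 0.884% of all features in the log ratio and 1.06% in the liver channel. Neither channel gave a call among the 9 genes or, at 0% in each, among all features.

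The test of whether fostering acted differently in exposed and control litters, (MM minus M) minus (CC minus C), gave no call among the 9 genes or, at 0%, among all features, of which 184 had an unadjusted limma p under 0.05. Lrat had the largest value, 0.31 ± 0.43, and Pdgfrb followed at 0.27 ± 0.12 (limma adjusted p = 1.00). For Col1a1 the value was 0.16 ± 0.22, for Col3a1 -0.03 ± 0.31 and for Timp1 -0.15 ± 0.14. The second Col1a1 probe had the opposite sign, at -0.06 ± 0.21. In CC minus C the 2 Col1a1 probes also differed in sign, at -0.12 ± 0.16 for the brighter and 0.07 ± 0.15 for the second.

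**Figure D2:**
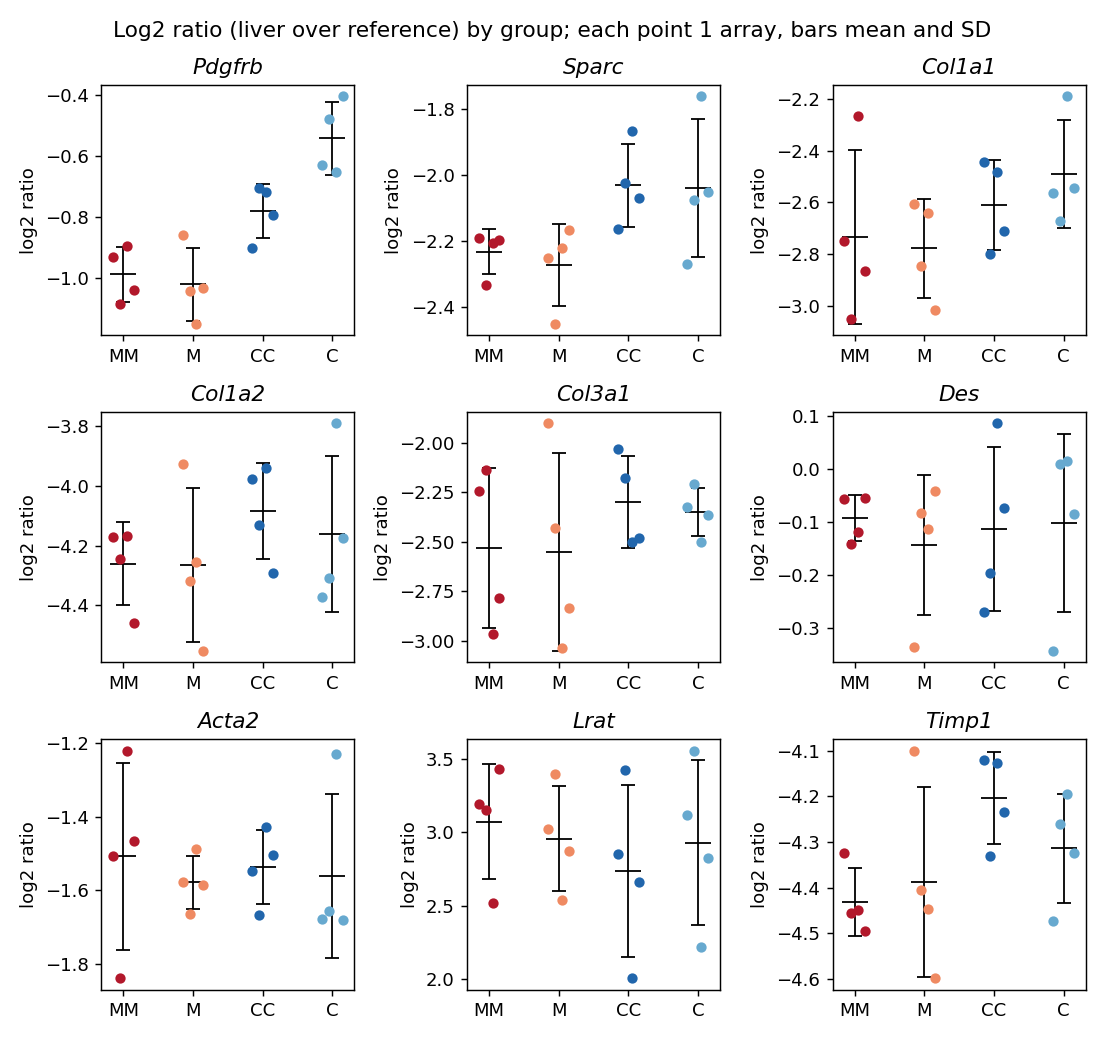
Log2 ratio of liver over reference (vertical axis, scaled to each gene) in the MM, M, CC and C arrays of the 9 tested genes, with 1 point per array and bars for mean and SD (n = 4). Pdgfrb runs from about -1.15 on the lowest M array to -0.41 on the highest C array, and the other genes overlap between M and C.

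M minus C asked about exposure of litters left with their mothers, and compares slide 2 with slide 1. Pdgfrb was lower in M and was the 1 call among the 9 genes, while 4.1% of all features were called. Its log2 ratios were -0.86, -1.04, -1.15 and -1.03 on the M arrays, against -0.63, -0.48, -0.65 and -0.41 on the C arrays. The groups did not overlap, as was also the case for 10.9% of all features. The difference was -0.48 ± 0.09 (SE), 0.718-fold, with a limma adjusted p of 0.00518.

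The channels were then read apart for Pdgfrb. In the liver channel the log2 signal was 7.38, 7.13, 7.07 and 7.31 on the M arrays, against 7.48, 7.58, 7.39 and 7.59 on the C arrays. All M arrays were lower, the nearest only slightly, as in 4.88% of all features whose groups did not overlap in that channel, and the difference of -0.29 ± 0.08 did not pass (limma adjusted p = 0.224). In the reference channel, which held the same RNA on every array, the signal was 9.78, 9.71, 9.78 and 9.80 on the M arrays, against 9.62, 9.60, 9.63 and 9.53 on the C arrays. All M arrays were higher there, and 42.3% of all features did not overlap in that channel. The difference of 0.17 ± 0.03 passed (limma adjusted p = 0.000152). The differences in the 2 channels thus had opposite signs. Of all features, 48.5% were called in the reference channel and 0.00902% (1 feature) in the liver channel.

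The call also depended on processing. It was lost with median centring in place of loess, at -0.37 (limma adjusted p = 0.164), and within slide row 1 at -0.40 (adjusted p = 0.146) and slide row 2 at -0.56 (adjusted p = 0.167), each with 2 arrays a group. Without each array in turn it stayed called, at -0.53 to -0.43. The Pdgfrb probe had 2 spots, with a median SD between spots of 0.35 (0.06 to 0.74), beside 0.11 between arrays of a group.

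The other 8 genes did not pass in M minus C, and their M and C arrays overlapped. Sparc stood at -0.23 ± 0.10 (limma adjusted p = 0.265), Col1a1 at -0.29 ± 0.16, Col3a1 at -0.20 ± 0.22 and Col1a2 at -0.10 ± 0.14. Acta2 stood at -0.02 ± 0.13, Des at -0.04 ± 0.10, Timp1 at -0.07 ± 0.10 and Lrat at 0.03 ± 0.30. Of the 9, 8 were below 0, with a median of -0.10, beside -0.03 over all features, of which 43.5% were above 0. The second Col1a1 probe gave -0.10 ± 0.15.

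MM minus CC asked the same of fostered litters, again slide 2 against slide 1. None of the 9 genes passed, while 0.902% of all features were called. Pdgfrb stood at -0.21 ± 0.09 (limma adjusted p = 0.371). Its log2 ratios were -0.93, -1.09, -0.90 and -1.04 on the MM arrays, against -0.90, -0.71, -0.72 and -0.79 on the CC arrays. The groups overlapped, since the highest MM array stood above the lowest CC array. Sparc, at -0.20 ± 0.10 (adjusted p = 0.510), did not overlap: -2.19, -2.33, -2.21 and -2.20 on the MM arrays, against -2.17, -2.02, -1.87 and -2.07 on the CC arrays. Of all features, 6.61% did not overlap. A fit of the MM and CC arrays alone called 14 features, and 135 with the array number shared by the groups as a replicate block, with none of the 9 genes in either. Timp1 stood at -0.23 ± 0.10 (limma adjusted p = 0.408), Col3a1 at -0.23 ± 0.22, Col1a2 at -0.18 ± 0.14 and Col1a1 at -0.13 ± 0.16. Lrat stood at 0.34 ± 0.30, Acta2 at 0.03 ± 0.13 and Des at 0.02 ± 0.10, and the median of the 9 was -0.18, beside -0.02 over all features.

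**Figure D3:**
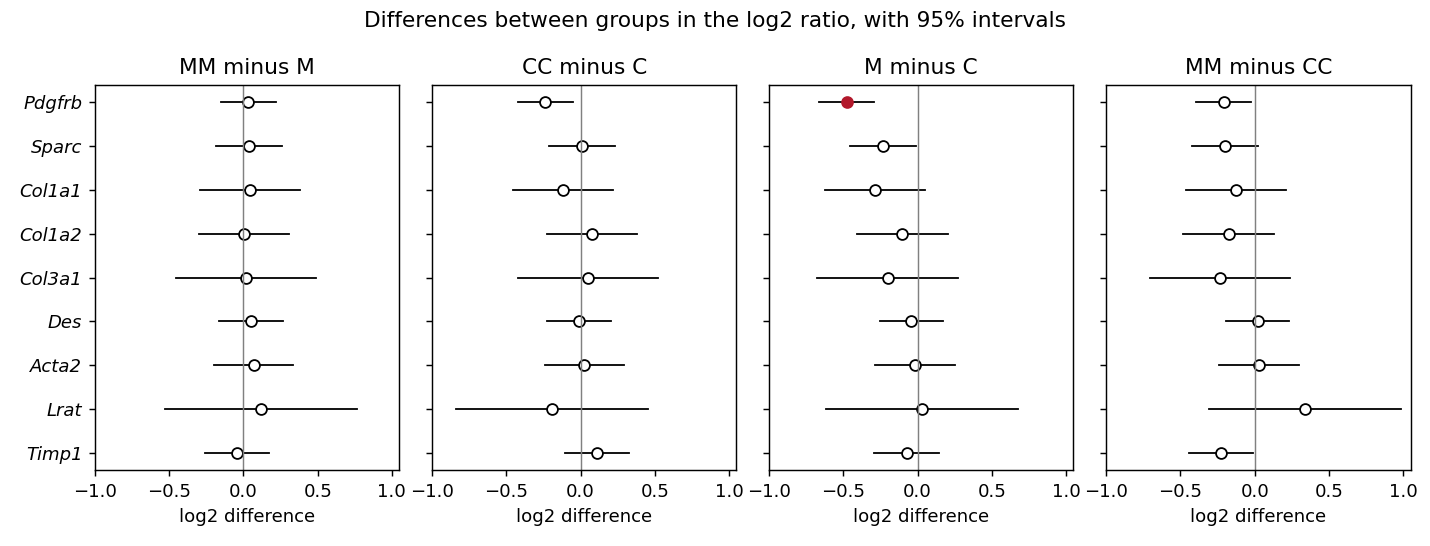
Difference in log2 ratio (horizontal axis) for each of the 9 genes in MM minus M, CC minus C, M minus C and MM minus CC, with limma's 95% intervals. The filled red point, Pdgfrb in M minus C at -0.48, is the 1 call, and the Lrat intervals are the widest.

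The channels taken apart gave different calls in the exposure comparisons. In M minus C, 4 of the 9 genes were called in the reference channel, where 48.5% of all features were: Pdgfrb at 0.17, Acta2 at 0.19, Col1a1 at 0.07 and Des at -0.16. In MM minus CC the same 4 genes were called, with Pdgfrb at 0.11, Acta2 at 0.26, Col1a1 at 0.17 and Des at -0.18, where 45.3% of all features were called. The Col1a1 probe used had 1 spot. The second Col1a1 probe, with 2 spots, was not tested in the reference channel. Its mean log2 signal there was 14.04 in C, 14.04 in M, 14.09 in CC and 14.07 in MM. In the liver channel none of the 9 was called in either comparison, against 0.00902% and 0.0271% of all features (1 and 3 features). Lrat in the liver channel was 8.08, 8.01, 8.01 and 8.16 on the MM arrays, against 7.78, 7.97, 7.35 and 7.56 on the CC arrays. The MM arrays all lay above the CC arrays, and the difference was 0.40 ± 0.15 (limma adjusted p = 0.572). Timp1 in the liver channel was lower on every MM array than on any CC array, by -0.24 ± 0.09 (adjusted p = 0.573), and so was Sparc, by -0.21 ± 0.08 (limma adjusted p = 0.615). Of all features, 4.24% did not overlap in that channel.

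**Figure D4:**
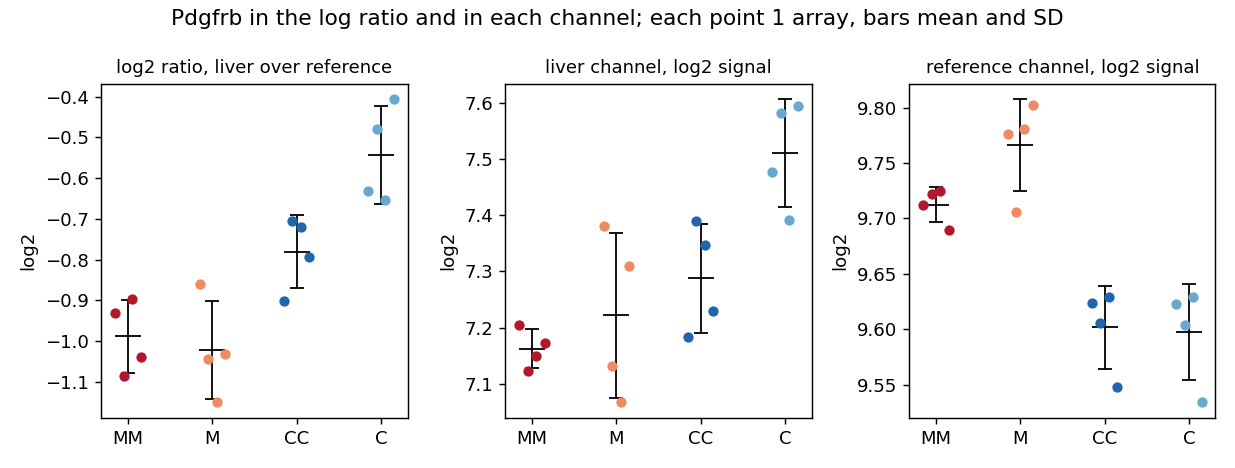
Pdgfrb in the log2 ratio, the liver channel and the reference channel (vertical axes, log2), by group MM, M, CC and C, with 1 point per array and bars for mean and SD (n = 4). The M arrays lie below the C arrays in the ratio and the liver channel and above them in the reference channel.

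Slide row, the position of an array on its slide, was called in the liver channel for Col3a1, Lrat and Acta2. Col3a1 in the liver channel was lower on row 2 arrays than on row 1 arrays by -0.59 ± 0.10 (SE; limma adjusted p = 0.000215), beside 45.2% of all features called for row in that channel. Row 2 ran from 10.01 to 10.40 on slide 1, against 10.49 to 10.78 in row 1, and the rows did not overlap. On slide 2, row 2 ran from 9.62 to 9.91, against 10.32 to 10.84 in row 1, again with no overlap. The difference was -0.37 ± 0.10 within slide 1 (limma adjusted p = 0.0297) and -0.80 ± 0.12 within slide 2 (adjusted p = 0.00205), and whether these differ was not tested.

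Lrat was lower in row 2 by -0.29 ± 0.08 in the liver channel (limma adjusted p = 0.00635). Within slide 1 the difference was -0.40 ± 0.09 (adjusted p = 0.0178), and within slide 2 it was -0.17 ± 0.11 (adjusted p = 0.246). Acta2 was higher in row 2 by 0.12 ± 0.05 (adjusted p = 0.0437), and the other 6 genes were not called for row. In the log ratio 42.4% of all features were called for row, with the same 3 members called, Lrat at -0.58, Col3a1 at -0.50 and Acta2 at 0.19. In the reference channel 1.4% were, and none of the 9 genes. Rows held equal numbers of each group, so a row difference of the same size on both slides does not shift a group difference. A row difference that is not the same on both slides can shift M minus C and MM minus CC. The mean log2 ratio of Col3a1 in row 1 was -2.19 on slide 1 and -2.18 on slide 2. In row 2 it was -2.46 on slide 1 and -2.91 on slide 2. Row also widens the spread of Col3a1 and Lrat within groups.

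**Figure D5:**
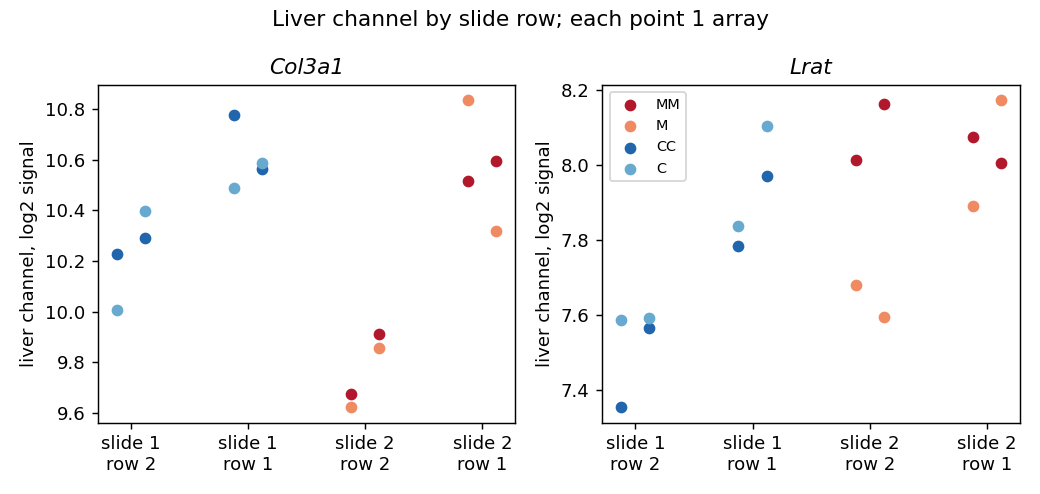
Log2 signal of the liver channel (vertical axis) for Col3a1 and Lrat by slide and row, 1 point per array, coloured by group. Col3a1 in row 2 lies below row 1 on both slides, and Lrat in row 2 lies below row 1 on slide 1, while rows mix on slide 2.

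Whether the matrix genes varied together from array to array was looked at by correlation. Among Col1a1, Col1a2, Col3a1 and Sparc, 6 pairs were correlated in the liver channel within each slide (n = 8 arrays), with exact permutation p-values adjusted over 12 values. None passed. Col1a1 and Col1a2, chains of 1 molecule, gave Pearson r = 0.62 (Spearman rho 0.55) on slide 1 and 0.51 (rho 0.60) on slide 2, with exact permutation p of 0.0978 and 0.201 for r and of 0.171 and 0.132 for rho. Leaving out the 2 arrays farthest from the Col1a1 median gave r = 0.63 and 0.48. Col3a1 falls into its 2 rows on both slides and Sparc on slide 1, so their pooled correlations there are not given, and with 4 arrays a row they could not be tested within rows. Over all 16 arrays, deviations from the group means in the liver channel were most like those of Col1a1 for 2 features without a symbol and for Pitx1 (r = 0.92), Anxa4 (0.92) and Zfp112 (0.92). For Col3a1 they were 4 features without a symbol and Cdc42ep3 (r = 0.96, or 0.82 once row means were taken out), a description over arrays that share depth, slide and row.

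The genes around these members gave few calls. Of 20 tested collagens and matrix proteins outside the 10, 13 of collagen processing, 9 of matrix turnover, 12 contractile, 12 of retinoid handling and 12 other stellate markers, none was called in any group comparison. Among 15 tested genes of transforming and platelet-derived growth factor signalling 1 was called, Tgfbr2, the type II receptor for transforming growth factor beta, at -0.56 ± 0.15 in M minus C (limma adjusted p = 0.049). Its liver channel stood at -0.29 and its reference channel at 0.22, the same signs as for Pdgfrb. Of all features, 4.1% were called in M minus C and 0.902% in MM minus CC. Smad7, the inhibitory Smad, stood at -0.38 ± 0.20 in the interaction (limma adjusted p = 1.00), and Tgif1, a repressor of Smad targets, at -0.63 ± 0.23 in M minus C (adjusted p = 0.150). Cald1, the actin-binding caldesmon, stood at -0.46 ± 0.13 in M minus C (adjusted p = 0.0569), and Eln, elastin, at -0.42 ± 0.16 (adjusted p = 0.155). The 20 matrix proteins had a median of -0.08 in M minus C and -0.14 in MM minus CC, beside -0.03 and -0.02 over all features.

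The interaction gave the following values for the genes with the lowest p in each list, none of them called. Among matrix proteins Col6a2, a type VI collagen chain, stood at -0.17 ± 0.16 (SE), Lama5, a laminin chain, at 0.14 ± 0.14 and Eln at 0.22 ± 0.22. In collagen processing P3h1, a prolyl 3-hydroxylase, stood at 0.18 ± 0.17, its partner Crtap at 0.11 ± 0.15 and P4hb, a subunit of prolyl 4-hydroxylase, at -0.17 ± 0.18. Of the proteases of matrix turnover, Mmp15 stood at 0.27 ± 0.13, Mmp14 at -0.18 ± 0.18 and Adamts1 at -0.14 ± 0.17.

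Tgfbr2 stood at 0.38 ± 0.21 and Tgif1 at 0.41 ± 0.32 in the interaction. Retinoid and cytoskeletal genes gave smaller values. Cyp26b1, which degrades retinoic acid, stood at 0.33 ± 0.23, Rdh11, a retinal reductase, at 0.15 ± 0.21 and Pnpla2, a lipase of lipid droplets, at 0.08 ± 0.12. Cald1 stood at 0.27 ± 0.18, the myosin chain Myh9 at 0.19 ± 0.15 and the tropomyosin Tpm1 at 0.12 ± 0.13. Of the stellate markers, Rgs5 stood at -0.25 ± 0.23, the intermediate filament proteins vimentin (Vim) at -0.12 ± 0.14 and nestin (Nes) at 0.10 ± 0.15. The portal and muscle markers Gas6 and Smtn stood at -0.28 ± 0.22 and 0.17 ± 0.15.

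Of 19 other stellate markers on the array, 6 were not well above background in liver on any array: Gfap, Ngfr, Tcf21, Ntm, Bmp10 and Hand2. Against the reference, 7 of the 12 tested markers were called higher in liver (50.9% of all features) and 5 lower (41.5%). The median log2 ratio of these 12 markers was 0.42. Among those well above background on all 16 were Reln, Lhx2, Colec10, Dcn and Cygb. Their summed liver signal ran from 9014 to 11409 on the M arrays, against 7762 to 11615 on the C arrays. Of 12 markers of portal fibroblasts, mesothelium and smooth muscle on the array, 5 were not well above background in liver on any array (Lmod1, Cnn1, Cd34, Thy1 and Wt1), and Myh11 was so on 1. Their summed liver signal ran from 1718 to 1907 on the M arrays, against 1818 to 2125 on the C arrays, and their median in M minus C was 0.00, with none of 6 tested called.

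Markers of other cells were read beside the Pdgfrb difference. All 4 tested erythroid markers were below 0 in M minus C, none called, with a median of -0.49. The summed liver signal of the erythroid markers was 37636 to 61144 on the M arrays, against 66432 to 86322 on the C arrays. It was 42655 to 80479 on the CC arrays and 43144 to 113906 on the MM arrays, so the fostered groups overlapped. All 4 were also below 0 in CC minus C and above 0 in MM minus M, none called. Eng, an endothelial receptor subunit, was higher in M, at 0.66 ± 0.15 (limma adjusted p = 0.0231). It was the 1 call among 8 tested sinusoidal markers, 5 of which were above 0. The Eng liver channel stood at 0.44 and its reference channel at -0.08. Of all features, 4.1% were called in M minus C, which compares slide 2 with slide 1, and 43.5% were above 0. Tf, the hepatocyte protein transferrin, had a lower log ratio in M, at -0.56 ± 0.15 (limma adjusted p = 0.0488). It was the 1 call among 12 hepatocyte markers, 11 of which were below 0 in that ratio. The Tf liver channel stood at -0.15 (limma adjusted p = 0.536) and its reference channel at 0.21 (adjusted p = 0.0306). Over the 12 markers the median log ratio was -0.19, while the median was 0.04 for liver signal alone and 0.08 for reference signal alone. In CC minus C all 8 sinusoidal markers were above 0 and none was called. In the interaction Eng stood at -0.77 ± 0.22, Lyve1 at -0.49 ± 0.26, the Kupffer cell marker C1qc at -0.64 ± 0.27 and the erythroid Hbb at 0.59 ± 0.32, none of them called. The 11 Kupffer cell and 4 cholangiocyte markers tested gave no call in any group comparison. The part of these cells in the Pdgfrb values was not tested.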

How the data were processed

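Scanner text files were deposited for each array. Per the file headers, Agilent Feature Extraction 11.0.1.1 wrote the median intensity of every spot and of its local background for the Cy5 and Cy3 signal, and also a log10 ratio of processed red over green signal, which the scanner software had background-subtracted and dye-normalized. The authors' deposited value table was read as log2 liver over reference: it correlated at 0.989 to 0.995 with loess ratios without background subtraction, array by array, with slopes of 0.979 to 0.994 and array medians of -0.04 to -0.03, and no source used here says how it was made or centred. Its values, the scanner's own ratio and each channel alone served as alternatives.

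Intensities were corrected with normexp (offset 50) and loess-normalized within arrays in limma 3.58.1 (R 4.3.3), giving control spots no weight. Outlier spots, 732 to 1138 per array, were left out and spots of a probe averaged. Of 30367 probes, 18005 took a symbol by matching the accession to the RefSeq table of GRCr8, and because the array's design used another assembly, no probe coordinates are given. The brightest probe per name was kept, and a feature was tested where liver was well above background on 3 of the 4 arrays of at least 1 group. limma was fitted with 4 group means on 16 arrays (12 residual degrees of freedom), p-values were adjusted over all 11089 features (Benjamini-Hochberg), and a call needed an adjusted p under 0.05. Channels apart were normexp-corrected and quantile normalized between arrays.

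Replicates are pools of 2 rats, and the number of arrays limits precision. In the main fit, p-values of the log ratio and the liver channel measure the spread between pools and arrays, slide row included. The reference channel held the same RNA on every array, so its p-values measure the spread between arrays only. No source used here says whether pools shared litters. The fit for the slide row and for some channel settings was added after seeing the data. Same-numbered CC and MM arrays deviated together (correlations of 0.55, 0.16, 0.58 and 0.19 over all features); they also share a slide row, and a fit with the number as a block was run. In simulated data for MM minus M on 11089 features, 42 of 100 changes of 0.5 and 91 of 100 changes of 1 (log2) were called. So were 8 unchanged features. The simulated errors were independent between features and held no slide row effect. The shares also depend on how many changes were planted, so they do not give the power of the real comparison.

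The members and the wider lists were chosen with earlier results of these data known. By rule, every member was described, then from each wider list the 3 tested genes with the lowest interaction p and any called gene were named (of the marker lists of other cell types, some only by list), and the 5 features most like Col1a1 and Col3a1 in the liver channel. Other genes are named as markers present or absent.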

Additional observations from a re-analysis of the deposited data

Results flagged for a closer look

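Among 108 groups of 4 arrays looked at, in 9 genes and 3 scales, 8 held an array that stood far from the other 3 of its group by Dixon's test. Chance flags about 1 in 20 groups. In the log ratio, Sparc on MM replicate 2 was -2.33, against -2.21 to -2.19 on the other MM arrays, and Acta2 on C replicate 11 was -1.23, against -1.68 to -1.66 on the other C arrays. In the liver channel, Col1a2 on MM replicate 4 was 9.85, against 10.18 to 10.23 on the other MM arrays. Col1a1 on C replicate 11 was 10.14, against 9.80 to 9.83 on the other C arrays. Acta2 on M replicate 8 was 6.68, against 6.52 to 6.53 on the other M arrays. In the reference channel, Col1a1 on MM replicate 1 was 13.72, against 13.77 on each of the other MM arrays, Col3a1 on MM replicate 2 was 13.83, against 13.88 on the rest, and Des on M replicate 6 was 7.72, against 7.57 to 7.59 on the rest.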

How the results depend on the processing

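In MM minus M, CC minus C and the interaction, 0 of the 9 genes were called in limma under every setting run. In liver over reference all 9 kept their direction, with sizes that depended on the offset, centring and probe choice as given there, and Des lost its call in the settings given with it. In M minus C the count of called members was 1 and became 0 with median centring, within slide row 1, within slide row 2, in the liver channel alone, in the liver channel with slide row as a block (Pdgfrb adjusted p = 0.112) and in the liver channel after loess and Aquantile. It became 4 in the reference channel and in that channel after loess and Aquantile, and in MM minus CC it became 4 in both of these. Leaving out each array in turn left the count at 1 in M minus C and at 0 in MM minus CC. In the reference channel alone, some called member values had the sign opposite to the log ratio. In M minus C Col1a1 was 0.068, Acta2 0.19 and Pdgfrb 0.17, and in MM minus CC Col1a1 was 0.17, Des -0.18 and Pdgfrb 0.11. A reference difference enters the ratio of liver over reference with its sign reversed, so these opposite signs are not a reversal of the main result. After loess and Aquantile these were 0.087, 0.17 and 0.17 in M minus C, and 0.19, -0.14 and 0.10 in MM minus CC. Why the reference channel differed between slides was not tested. The sign was opposite to the main value in 59 of 297 alternative values in MM minus M, 40 of 297 in CC minus C and 37 of 288 in the interaction. It was so in 35 of 297 in M minus C and 27 of 306 in MM minus CC, the reference channel included. The totals for M minus C and MM minus CC include called values. In MM minus CC, a fit of the MM and CC arrays alone called 135 features with the replicate block and 14 without it, and 0 members in either; the other groups share no array numbers, so no other comparison was fitted with the block. Over all features, M minus C gave 455 calls, but 1368 with the scanner log ratio, 1167 with slide row as a block, 272 on the compared groups alone, 190 and 4 within rows 1 and 2, and 215 to 298 without 1 of 7 arrays (lowest without M replicate 8). MM minus CC gave 100 calls, but 490 with the scanner log ratio, 420 with slide row as a block, 177 with median centring, 14 on the compared groups alone, 1 within row 2 and 36 to 55 without 1 of 5 arrays. Signal over background limits Tgfb1, Des and Acta2, whose median raw liver intensities were 82.9, 98.3 and 101 beside array backgrounds of 68.8 to 73.5, and Lrat, which was not well above background in the reference.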
